A study of Mus musculus with 8 samples.

Results

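Genes that mammals use in germ cells and in meiosis were followed here in mouse embryonic stem cells (ESCs) held in 4 serum-free media. The group has 40 members, listed by name for their function from a table of 38991 genes. The list uses no measured value, but it was drawn up with earlier results of these data known. Of the 40 names, 38 were found as gene symbols, and 2 were found by their Ensembl identifiers because the table lists them under older symbols (Meioc as Gm1564 and Majin as 1700123I01Rik). By role, 11 members form a class of germ cell RNA-binding proteins and regulators, in which the ADP/ATP carrier gene Slc25a31 was also placed. Another 11 belong to the synaptonemal complex, the meiotic cohesins or the chromosome axis, and 5 act in recombination. The piRNA pathway or transposon control has 11, and 2 are the bridge protein TEX14 and the surface protein TEX101.

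All cultures came from Rex1GFPd2 (RGd2) ESCs of strain 129 at passage 11, a line that reports Rex1 activity with a short-lived green fluorescent protein. Cells were grown for 6 passages in 2i and then for 5 passages in their final medium, with a split every 3 days, and each medium was N2B27 with its own additives. 2i holds CH (CHIR99021, an inhibitor of the kinase GSK3, 3 µM) and PD (PD0325901, an inhibitor of the MEK kinases, 1 µM), and 2i+LIF adds the cytokine LIF. LIF+PD lacks CH and CH+LIF lacks PD, so MEK was inhibited in every medium but CH+LIF, and GSK3 in every medium but LIF+PD. RNA sequencing gave 2 cultures per medium, and nothing in the descriptions says that the 2 came from separate derivations, so p-values measure the spread between these cultures only.

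Many genes of the germline are kept silent in somatic cells by methylation of CpG-rich promoters, which the de novo enzymes DNMT3A and DNMT3B set around implantation and the maintenance pair DNMT1 and UHRF1 copies after replication. A Polycomb complex that holds E2F6, MGA, MAX and L3MBTL2 reaches many of the same promoters through E2F sites and E-boxes. Naive ESCs are known for low genome-wide methylation when MEK is inhibited, and several germline genes are transcribed in them at low levels without any meiosis taking place. DNA methylation itself was not measured in these cultures, so only RNA levels are given.

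The promoter windows of the members show which of these features their DNA holds. RefSeq windows of 300 bases (250 before and 50 after each listed start, build GRCm38.p6) were matched by symbol for 33 of the 40 members, and not for Tex11, Tex15, Tdrd6, Piwil2, Spo11, Dnd1 and Majin. Where a gene has several windows, it was counted once, with its highest value. The members' windows held a median of 19 CpG (quartiles 15 and 24), against a median of 8 (quartiles 3 and 22) over 27025 genes and of 15 (quartiles 4 and 25) over 17492 protein-coding genes. The E-box CACGTG, which reads the same on both strands, was in the windows of 14 members (42.4%), against 8.09% of all genes and 8.91% of protein-coding genes. The E2F core GGCGGGA, which reads TCCCGCC on the other strand and shares no more than an end base with the E-box, was in 6 (18.2%), against 12.7% and 16.8%, and both motifs were in 5 members (15.2%), against 1.39% and 1.88%. The 5 with both were Ddx4, Hormad1, Mael, Slc25a31 and Syce2. These are descriptions with no test, and a match of letters is not a bound site. The stretches of 180 bases that end at the start are printed for 6 members whose RNA levels are described below, 3 with an E-box (Hormad1, Ddx4 and Brdt) and 3 with no match (Smc1b, Dazl and Nanos3), with the E-box and E2F letters in capitals.

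Hormad1 (chr3:95559497-95559676, plus strand): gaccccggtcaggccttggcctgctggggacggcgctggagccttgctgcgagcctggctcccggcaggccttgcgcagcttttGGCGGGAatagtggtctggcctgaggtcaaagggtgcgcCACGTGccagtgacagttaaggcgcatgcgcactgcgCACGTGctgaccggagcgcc
Ddx4 (chr13:112652311-112652490, minus strand): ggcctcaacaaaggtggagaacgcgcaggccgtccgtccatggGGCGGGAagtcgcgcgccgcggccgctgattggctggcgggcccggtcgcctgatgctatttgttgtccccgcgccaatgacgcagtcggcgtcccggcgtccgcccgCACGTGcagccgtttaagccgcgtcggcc
Brdt (chr5:107331014-107331193, plus strand): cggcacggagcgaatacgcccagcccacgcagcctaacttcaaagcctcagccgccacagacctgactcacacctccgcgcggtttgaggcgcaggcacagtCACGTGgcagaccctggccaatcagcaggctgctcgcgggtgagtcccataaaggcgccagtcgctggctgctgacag
Smc1b (chr15:85131958-85132137, minus strand): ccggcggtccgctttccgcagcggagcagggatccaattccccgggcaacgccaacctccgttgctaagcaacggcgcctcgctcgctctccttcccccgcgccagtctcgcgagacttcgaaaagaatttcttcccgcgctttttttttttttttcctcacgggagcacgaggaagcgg
Dazl (chr17:50293621-50293800, minus strand): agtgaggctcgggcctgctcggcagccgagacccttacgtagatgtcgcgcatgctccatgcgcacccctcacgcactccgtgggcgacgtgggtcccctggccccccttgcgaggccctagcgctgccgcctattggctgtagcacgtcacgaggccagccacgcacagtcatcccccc
Nanos3 (chr8:84176553-84176732, minus strand): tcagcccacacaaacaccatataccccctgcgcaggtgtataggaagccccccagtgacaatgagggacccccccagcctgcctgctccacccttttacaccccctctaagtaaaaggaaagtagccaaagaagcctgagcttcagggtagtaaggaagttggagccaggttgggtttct

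Hormad1 carries 2 E-boxes and 1 E2F match in its 180 bases, and Ddx4 carries 1 of each. Brdt has 1 E-box and no E2F match. Smc1b and Dazl hold neither motif, although their stretches have 22 and 17 CpG, more than the 15 of Hormad1 and of Brdt. Nanos3 stands apart with 1 CpG, against 28 in Ddx4. Of the 14 members with an E-box, 9 passed the filter on low values described below, and their mean level was highest in 2i for 4, in LIF+PD for 3, and in 2i+LIF and CH+LIF for 1 each. Of the 19 members without one, 13 passed, and they were highest in 2i+LIF for 4, in 2i for 3 and in LIF+PD for 6. These counts include Brdt and Mov10l1, with an E-box, and Smc1b, without one. Brdt passed through 2i alone and the other 2 through LIF+PD alone, so the filter fixed their highest medium.

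Levels are FPKM, in which fragment numbers are divided by transcript length and by the sequencing depth of the culture, so that genes can be compared with each other. The members ranged from 0 to 139 FPKM. RNA of 5 members was at 10 FPKM or more in all 8 cultures: Hsf2bp (63.9 to 114), Rpl10l (48.6 to 139), Stag3 (31.9 to 62.2), Syce2 (35.6 to 62.7) and Tex19.1 (30.0 to 49.7). A further 10 members were at 1 FPKM or more in all 8 cultures, and 12 stayed below 1 FPKM in all 8. In the plot of levels by culture, the 5 abundant genes form bright rows across all media, while the others change from medium to medium and not all in the same one.

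**Figure D1:**
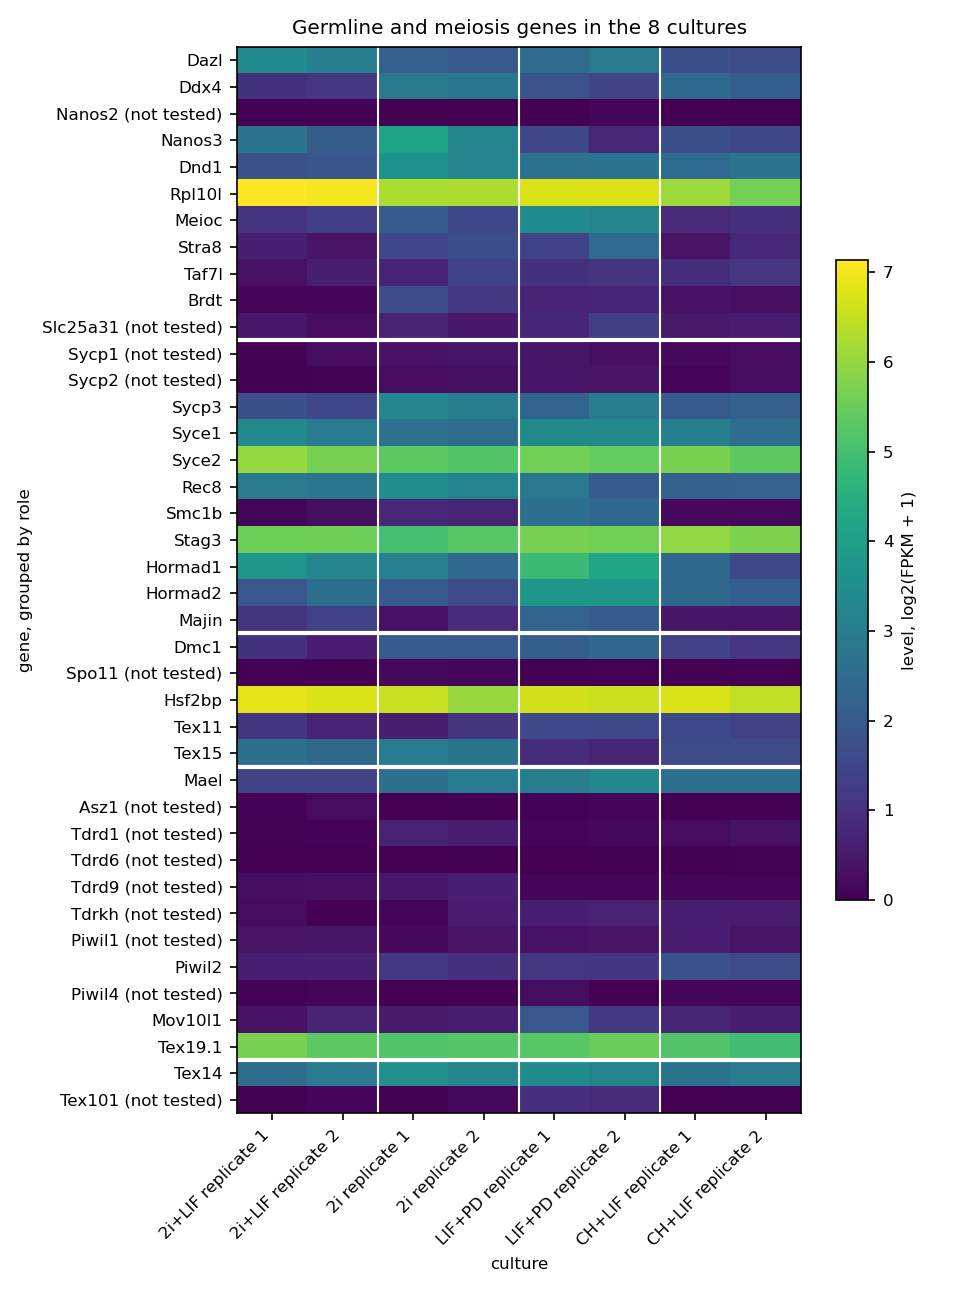
Levels of the 40 germline and meiosis genes as log2(FPKM + 1) (colour) in each of the 8 cultures (columns, 2 per medium), with rows grouped by role. The 5 brightest rows (Hsf2bp, Rpl10l, Stag3, Syce2 and Tex19.1) are at 30.0 FPKM or more in every culture, Smc1b passes 1 FPKM in LIF+PD alone, and the 13 genes marked as not tested reach at most 1.53 FPKM.

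The 4 media were compared on log2(FPKM + 1) with limma, over the 12927 genes that reached 1 FPKM in at least 2 cultures, with Benjamini-Hochberg adjustment over all of them and an adjusted p below 0.05 as the threshold. That filter kept 27 members, 3 of which passed through the 2 cultures of a single medium (Brdt in 2i, Smc1b and Mov10l1 in LIF+PD), so that these had to differ and are described below with no test against that medium. A difference among the 4 media was called for 21 of the 27, and for 18 of the other 24, against 46.8% of all genes tested. When any 1 culture was left out, it was called for 17 to 20 members and for 34.8% to 44.3% of all genes. Over the 6 pairwise comparisons, 23 members had 70 calls out of 162, against 24.8% of the tests over all genes, and without those 3 members 20 had 61 out of 144. The comparisons share cultures, so their counts are not independent of each other. By mean FPKM, 11 of the 27 were highest in LIF+PD, 9 in 2i, 5 in 2i+LIF and 2 in CH+LIF. The 11 include Smc1b and Mov10l1 and the 9 include Brdt, whose highest medium was fixed by the filter. By the same measure 11 were lowest in 2i+LIF, 8 in CH+LIF, 6 in 2i and 2 in LIF+PD. A bulk measurement cannot tell a change in the number of expressing cells from a change in RNA per cell.

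Compared with 2i+LIF, 7 members were higher in 2i (9.77% of all genes were) and 3 lower (8.86%), 10 calls against 18.6% of all genes. LIF+PD had 10 higher (14.8%) and 2 lower (10.4%), 12 calls against 25.2%. CH+LIF had 4 higher (12.2%) and 5 lower (13.3%), 9 calls against 25.4%. Without Brdt, Smc1b and Mov10l1 the counts were 6 and 3, 8 and 2, and 4 and 5, of 24. The median log2 differences of those 24 were 0.40, 0.58 and -0.09, against 0.04, 0.03 and 0.01 over all genes. In 2i 13 of the 24 were above and 11 below 2i+LIF, in LIF+PD 16 and 8, and in CH+LIF 12 and 12. In the synaptonemal, cohesin and axis class, 2 of 8 were above 2i+LIF in 2i and 6 below, with 1 call in each direction.

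Between the 3 media that lack an additive, LIF+PD had 9 members higher than 2i (14% of all genes) and 5 lower (11.1%), 14 calls against 25.1%. CH+LIF had 2 higher than 2i (10.6%) and 9 lower (13.3%), 11 calls against 23.9%. CH+LIF also had 3 higher than LIF+PD (12.6%) and 11 lower (17.8%), 14 calls against 30.4%. Without the same 3 members the counts were 7 and 5, 2 and 7, and 3 and 9, of 24. The median log2 differences of the 24 were 0.30, -0.39 and -0.40, against 0.00, -0.03 and -0.01 over all genes. CH+LIF was the lower side in most of its member calls against 2i and LIF+PD, as it was in most such calls over all genes. Those media differ from CH+LIF in LIF or CH as well as in PD. Against 2i+LIF, where PD alone differs, CH+LIF had 4 members higher and 5 lower. The plot of differences shows calls on both sides of zero in every comparison. In CH+LIF against LIF+PD the genes furthest toward LIF+PD are Hormad1, Meioc and Smc1b. Smc1b passed the filter through LIF+PD alone, so it had to lie on that side.

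**Figure D2:**
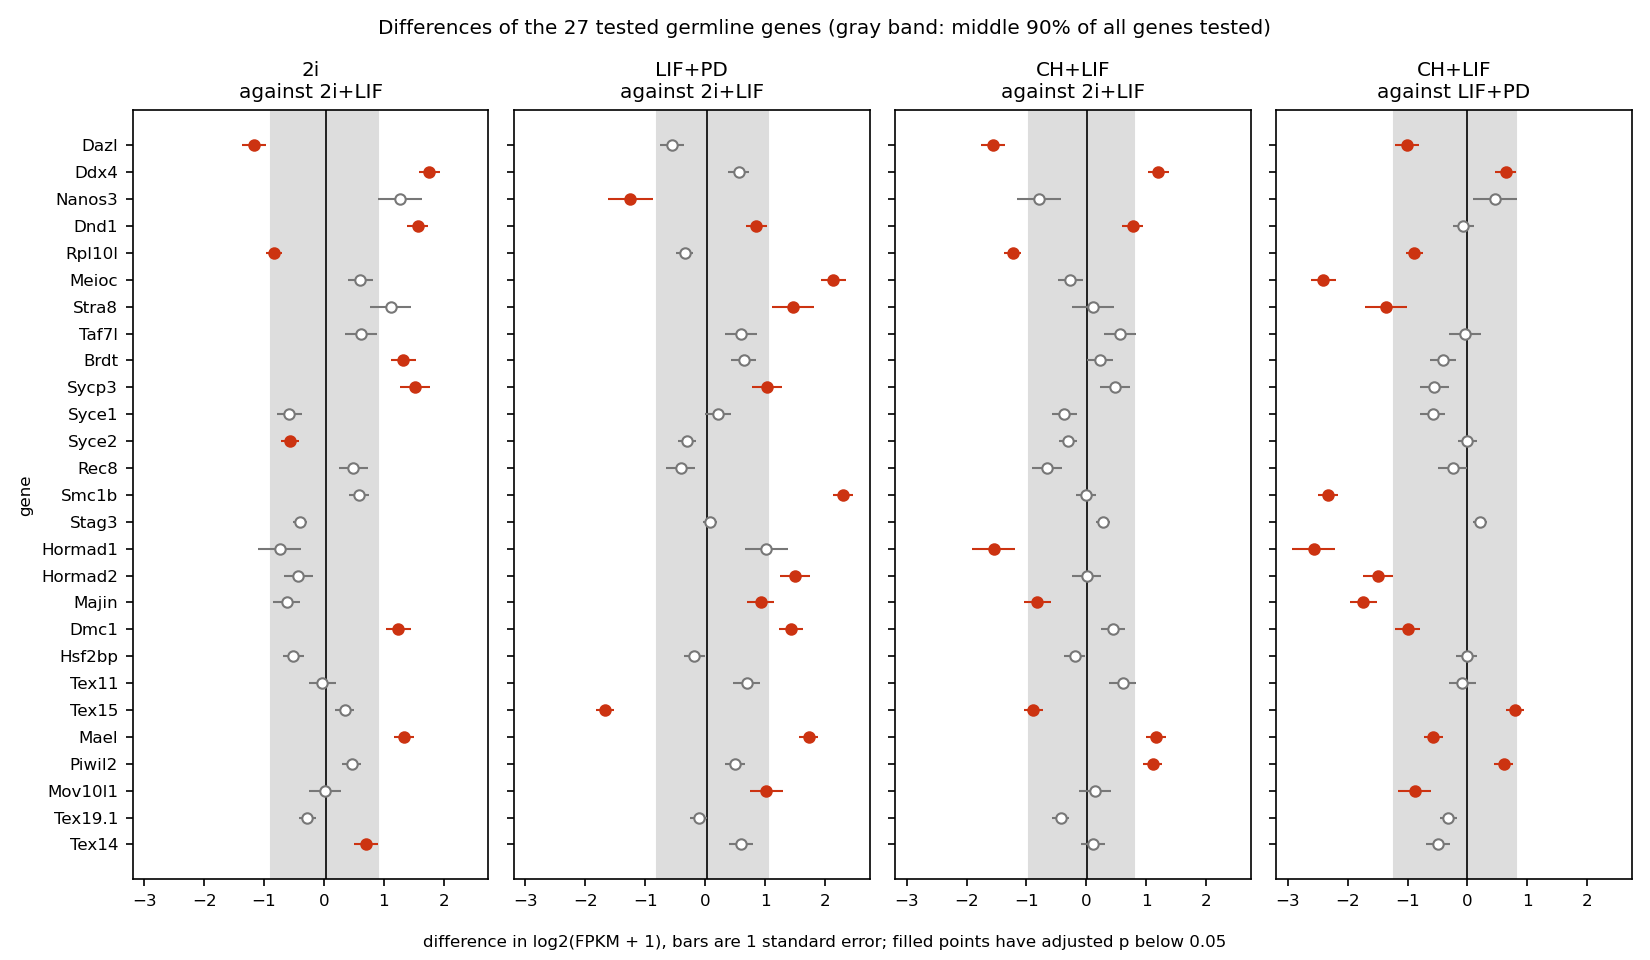
Difference in log2(FPKM + 1) of each of the 27 tested germline genes in 4 comparisons (x axis, the first medium minus the second), with bars of 1 standard error from limma. Filled red points have an adjusted p below 0.05, the gray band holds the middle 90% of all genes tested and the black line is their median. Against 2i+LIF there are 10 red points for 2i, 12 for LIF+PD and 9 for CH+LIF, with Brdt, Smc1b and Mov10l1 included.

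The larger falls in the member counts are listed here. The counts, and the share called over all genes, did not fall in every fit that left out a culture. Leaving one out leaves its medium with 1 culture, whose spread is taken from the others, and can drop a member below the filter (25 members were tested without either LIF+PD culture and 26 without either 2i culture). The 12 calls of LIF+PD against 2i+LIF became 6 without 2i+LIF replicate 1, 6 without its replicate 2 and 5 without LIF+PD replicate 2, when 13.2%, 13.4% and 13.6% of all genes were called. The 9 of CH+LIF against 2i+LIF became 5 without 2i+LIF replicate 1 (12.4% of all genes). The 14 of LIF+PD against 2i became 9 without 2i replicate 1 (16.5%), 7 without LIF+PD replicate 1 (14.9%) and 8 without LIF+PD replicate 2 (14.8%). The 11 of CH+LIF against 2i became 4 without 2i replicate 1 (14.1%), CH+LIF replicate 1 (11.5%) or CH+LIF replicate 2 (13.7%), and the 14 of CH+LIF against LIF+PD became 5 without LIF+PD replicate 2 (18.6%) and 9 without CH+LIF replicate 2 (20.7%). Rescaling each culture to the same FPKM sum raised the median of all genes by 0.12 for LIF+PD against 2i+LIF, by 0.17 for CH+LIF against 2i+LIF and by 0.12 for CH+LIF against 2i. On that scale 75%, 73.9% and 63.6% of all calls were higher, against 58.6%, 47.9% and 44.5% as reported. The members then had 17 higher and 2 lower, 5 and 4, and 4 and 9, and no member call changed direction under any scaling.

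Among the germ cell RNA-binding proteins and regulators, no single medium was the high one, and positions in parentheses are whole gene spans in mm10 as the files list them. Dazl (chr17:50279394-50293599, a translational regulator needed for germ cell development) was highest in 2i+LIF, Ddx4 (the VASA helicase), Nanos3 and Dnd1 (regulators that keep primordial germ cells alive) in 2i, and Meioc and Stra8 (proteins of meiotic entry) in LIF+PD. Dazl was at 9.92 and 7.27 in 2i+LIF, 3.58 and 2.89 in 2i, 4.64 and 6.48 in LIF+PD, and 2.34 and 2.09 in CH+LIF, all in FPKM. Both 2i+LIF cultures were above the other 6, and both CH+LIF cultures were below. It was 3.87 times lower in CH+LIF than in 2i+LIF by mean FPKM (log2 difference -1.56, SE 0.20, adjusted p = 0.00271), a call kept whichever culture was left out. Dazl was also lower in 2i than in 2i+LIF (log2 difference -1.17, SE 0.20, adjusted p = 0.00837) and in CH+LIF than in LIF+PD (log2 difference -1.01, SE 0.20, adjusted p = 0.0094), but the first passed no longer without 2i+LIF replicate 1 (adjusted p = 0.0541) and the second without LIF+PD replicate 2 (adjusted p = 0.0558).

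Ddx4 (chr13:112598333-112652310) ran the other way, at 1.08 and 1.17 in 2i+LIF, 6.34 and 6.02 in 2i, 2.52 and 1.79 in LIF+PD, and 4.42 and 3.39 in CH+LIF. Its 2 cultures in 2i were the highest and those in 2i+LIF the lowest, with no overlap between any 2 of the 4 media. The mean in 2i was 5.51 times that in 2i+LIF (log2 difference 1.76, SE 0.17, adjusted p = 0.000964), and the mean in CH+LIF was 3.48 times it (log2 difference 1.20, SE 0.17, adjusted p = 0.00397). LIF+PD was below 2i (log2 difference -1.20, SE 0.17, adjusted p = 0.00315). The excess of CH+LIF over LIF+PD (log2 difference 0.64, SE 0.17, adjusted p = 0.0306) was lost without LIF+PD replicate 2 (adjusted p = 0.152) or CH+LIF replicate 1 (adjusted p = 0.163).

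Nanos3 (chr8:84173733-84176552) was at 5.68 and 3.30 in 2i+LIF, 16.5 and 8.53 in 2i, 1.89 and 0.762 in LIF+PD, and 2.36 and 1.85 in CH+LIF. The 2i cultures were the highest pair and the LIF+PD and CH+LIF cultures the lowest, but the 2 cultures in 2i themselves lay far apart. In LIF+PD the mean was 9.46 times lower than in 2i (log2 difference -2.52, SE 0.37, adjusted p = 0.00328), and in CH+LIF it was 5.95 times lower (log2 difference -2.06, SE 0.37, adjusted p = 0.00869). A lower level in LIF+PD than in 2i+LIF (log2 difference -1.25, SE 0.37, adjusted p = 0.0469) was lost in 6 of the 8 fits that left out a culture, all but those without a 2i culture (adjusted p = 0.0561 to 0.213).

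Dnd1 was at 2.45 and 2.75 in 2i+LIF, 11.4 and 8.17 in 2i, 5.40 and 5.56 in LIF+PD, and 4.62 and 5.75 in CH+LIF. Both 2i+LIF cultures were below all others and both 2i cultures above. Its mean in 2i was 3.76 times that in 2i+LIF (log2 difference 1.57, SE 0.18, adjusted p = 0.00161), a call kept whichever culture was left out. Dnd1 was also called higher in LIF+PD (log2 difference 0.85, SE 0.18, adjusted p = 0.0136) and CH+LIF (log2 difference 0.78, SE 0.18, adjusted p = 0.0191) than in 2i+LIF, and lower in LIF+PD (log2 difference -0.72, SE 0.18, adjusted p = 0.0241) and CH+LIF (log2 difference -0.79, SE 0.18, adjusted p = 0.0191) than in 2i. Each of these 4 was lost without some culture, the first without either culture of 2i+LIF or LIF+PD (adjusted p up to 0.0747), the second without either 2i+LIF culture or CH+LIF replicate 2 (up to 0.0936), the third without 2i replicate 1 or either LIF+PD culture (up to 0.107), and the fourth without 2i replicate 1 or CH+LIF replicate 1 (up to 0.102). Dnd1 shares 5.80% of its exon bases with Wdr55 on the opposite strand, which was at 22.4 to 42.3 FPKM, and a reverse-strand setting is stated for read counts not used here but not for FPKM, so its level is uncertain.

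Meioc (chr11:102663716-102682237) was at 1.14 and 1.49 in 2i+LIF, 3.22 and 1.91 in 2i, 10.01 and 8.44 in LIF+PD, and 0.853 and 0.991 in CH+LIF. The LIF+PD cultures were far above the other 6. The mean in LIF+PD was 7.02 times that in 2i+LIF (log2 difference 2.14, SE 0.21, adjusted p = 0.000666), 3.598 times that in 2i (log2 difference 1.54, SE 0.21, adjusted p = 0.00241) and 10.01 times that in CH+LIF (CH+LIF against LIF+PD, log2 difference -2.41, SE 0.21, adjusted p = 0.000339). A lower level in CH+LIF than in 2i (log2 difference -0.87, SE 0.21, adjusted p = 0.025) was lost without 2i replicate 1 (adjusted p = 0.0978), CH+LIF replicate 1 (0.11) or CH+LIF replicate 2 (0.0764). Stra8 (chr6:34920163-34939344), the retinoic acid target that starts meiosis together with MEIOSIN, was at 0.536 and 0.288 in 2i+LIF, 1.87 and 2.22 in 2i, 1.69 and 4.66 in LIF+PD, and 0.307 and 0.769 in CH+LIF. It was low in 2i+LIF and CH+LIF and higher in 2i and LIF+PD, whose cultures overlapped. LIF+PD was called above 2i+LIF (log2 difference 1.47, SE 0.35, adjusted p = 0.0221) and CH+LIF below LIF+PD (log2 difference -1.36, SE 0.35, adjusted p = 0.0248). Both rest on single cultures, since the first was lost without LIF+PD replicate 2 (adjusted p = 0.0779) or either 2i+LIF culture (0.0705 and 0.102), and the second without LIF+PD replicate 2 (0.0921) or either CH+LIF culture (0.128 and 0.0502). No Stra8 difference between 2i and 2i+LIF passed the test (adjusted p = 0.0675).

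Rpl10l, a testis copy of a ribosomal protein gene, was with Hsf2bp the most abundant member by its mean, at 139 and 131 FPKM in 2i+LIF, 75.1 and 75.1 in 2i, 105 and 107 in LIF+PD and 66.8 and 48.6 in CH+LIF. It fell in 2i (log2 difference -0.84, SE 0.14, adjusted p = 0.00731) and in CH+LIF (log2 difference -1.23, SE 0.14, adjusted p = 0.00168) against 2i+LIF, and in CH+LIF against LIF+PD (log2 difference -0.89, SE 0.14, adjusted p = 0.00366), whichever culture was left out. An excess of LIF+PD over 2i (log2 difference 0.50, SE 0.14, adjusted p = 0.039) was lost when any 1 of the 6 cultures of 2i+LIF, 2i and LIF+PD was left out (adjusted p = 0.061 to 0.142). Of its stretches of 50 bases, 7.60% also occur in other genes, most in the pseudogene Gm14460, so part of this level is uncertain. All Rpl10l values also lie above the upper bounds deposited with them. Brdt, a bromodomain protein of spermatogenesis, was near zero in 2i+LIF (0.0636 and 0.0598 FPKM), at 2.21 and 1.21 in 2i, 0.635 and 0.678 in LIF+PD and 0.273 and 0.215 in CH+LIF. Both 2i cultures were above all others, with a mean 7.02 times that in CH+LIF, and since Brdt passed the filter through them alone, no test of 2i is given. Taf7l, a germ cell subunit of the general transcription machinery, ranged from 0.258 to 1.75 FPKM with no call.

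Genes of the synaptonemal complex, cohesin, the chromosome axis and telomere attachment were most often called between LIF+PD and 2i. Apart from Smc1b, 8 members of this class were tested. Against 2i+LIF, 1 was higher and 1 lower in 2i (9.77% and 8.86% of all genes). In LIF+PD 3 were higher and none lower (14.8% and 10.4%), and in CH+LIF none was higher and 2 lower (12.2% and 13.3%). Against 2i, 5 were higher and 1 lower in LIF+PD (14% and 11.1%) and 1 was higher and 2 lower in CH+LIF (10.6% and 13.3%), and against LIF+PD none was higher and 3 lower in CH+LIF (12.6% and 17.8%). Smc1b (chr15:85064691-85131957), the meiosis-specific SMC1 subunit of cohesin, was at 0.0696 and 0.212 in 2i+LIF, 0.744 and 0.671 in 2i, 5.05 and 4.26 in LIF+PD, and 0.139 and 0.118 in CH+LIF. Only the LIF+PD cultures passed 1 FPKM, and no other culture came near them. Its mean there was 4.66 ± 0.555 (SD, n = 2), against 0.141 ± 0.1004 in 2i+LIF, 0.707 ± 0.0515 in 2i and 0.129 ± 0.0150 in CH+LIF, and since it passed the filter through LIF+PD alone, no test of LIF+PD is given. Smc1b was also called lower in CH+LIF than in 2i (log2 difference -0.60, SE 0.17, adjusted p = 0.0408), which was lost when any 1 of the 6 cultures of 2i+LIF, 2i and CH+LIF was left out (adjusted p = 0.0583 to 0.134).

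HORMAD1 and HORMAD2 coat unsynapsed axes and watch over their pairing. Hormad1 (chr3:95559677-95587671) was at 12.5 and 8.64 in 2i+LIF, 7.59 and 4.47 in 2i, 27.9 and 17.7 in LIF+PD, and 4.18 and 1.97 in CH+LIF. The order of the media was LIF+PD, 2i+LIF, 2i and CH+LIF, and no 2 of them overlapped, though the cultures of a medium differed widely. It was 7.41 times lower in CH+LIF than in LIF+PD (log2 difference -2.57, SE 0.36, adjusted p = 0.00227), a call kept whichever culture was left out. LIF+PD was above 2i (log2 difference 1.76, SE 0.36, adjusted p = 0.0121) but not without 2i replicate 2 (adjusted p = 0.0564) or LIF+PD replicate 1 (0.0709), and CH+LIF was below 2i+LIF (log2 difference -1.54, SE 0.36, adjusted p = 0.0212) but not without either 2i+LIF culture (0.11 and 0.0505) or CH+LIF replicate 2 (0.0943). The excess of LIF+PD over 2i+LIF did not pass (adjusted p = 0.0779). Of the 50-base stretches of Hormad1, 22.9% also occur in the pseudogene Gm15529, which was listed at 0 in all 8 cultures, so its level is uncertain.

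Hormad2 (chr11:4345814-4441105) was at 2.80 and 4.99 in 2i+LIF, 3.09 and 2.09 in 2i, 12.6 and 12.5 in LIF+PD, and 4.30 and 3.35 in CH+LIF. The LIF+PD cultures were nearly equal and above all others, and the 2i+LIF cultures spanned those of CH+LIF and overlapped those of 2i. LIF+PD was 3.21 times 2i+LIF (log2 difference 1.501, SE 0.24, adjusted p = 0.00532), 4.83 times 2i (log2 difference 1.93, SE 0.24, adjusted p = 0.00182) and 3.27 times CH+LIF (CH+LIF against LIF+PD, log2 difference -1.49, SE 0.24, adjusted p = 0.00436), each kept whichever culture was left out. Majin (chr19:6184388-6224225), which ties telomeres to the nuclear envelope in meiosis, was at 1.10 and 1.63 in 2i+LIF, 0.264 and 0.837 in 2i, 3.76 and 3.21 in LIF+PD, and 0.339 and 0.333 in CH+LIF. LIF+PD was again highest, followed by 2i+LIF, with 2i and CH+LIF overlapping below 1 FPKM. LIF+PD exceeded 2i by 6.32 times (log2 difference 1.55, SE 0.23, adjusted p = 0.00319) and CH+LIF by 10.4 times (CH+LIF against LIF+PD, log2 difference -1.74, SE 0.23, adjusted p = 0.00168). Against 2i+LIF, Majin was higher in LIF+PD (log2 difference 0.93, SE 0.23, adjusted p = 0.0244) and lower in CH+LIF (log2 difference -0.81, SE 0.23, adjusted p = 0.0376), but the first was lost when any 1 culture of those 2 media was left out (adjusted p = 0.054 to 0.129) and the second when any 1 of the 6 cultures of 2i+LIF, LIF+PD and CH+LIF was (0.0605 to 0.178).

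Sycp3 (chr10:88459569-88473236), a lateral element protein, was highest in 2i, at 2.34 and 1.87 in 2i+LIF, 8.84 and 6.99 in 2i, 3.95 and 7.11 in LIF+PD, and 3.09 and 3.55 in CH+LIF. Both 2i+LIF cultures were the lowest, and 1 LIF+PD culture lay among the 2i cultures. The mean in 2i was 3.76 times that in 2i+LIF (log2 difference 1.52, SE 0.24, adjusted p = 0.00658). A higher level in LIF+PD than in 2i+LIF (log2 difference 1.03, SE 0.24, adjusted p = 0.0221) was lost without LIF+PD replicate 2 (adjusted p = 0.0848) or either 2i+LIF culture (0.0653 and 0.106), and a lower level in CH+LIF than in 2i (log2 difference -1.04, SE 0.24, adjusted p = 0.0231) was lost without 2i replicate 1 (0.105) or either CH+LIF culture (0.107 and 0.0698). Sycp3 shares 52.2% of its exon bases with Chpt1 on the opposite strand, which was at 3.85 to 12.9 FPKM, so reads of the 2 may not have been told apart.

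The other cohesin and synaptonemal genes had smaller called differences. Rec8, the meiotic kleisin of cohesin, ranged from 3.23 to 10.4 FPKM and was called lower in CH+LIF (log2 difference -1.14, SE 0.24, adjusted p = 0.0167) and LIF+PD (log2 difference -0.89, SE 0.24, adjusted p = 0.0357) than in 2i. The first was lost without 2i replicate 1 or either CH+LIF culture (adjusted p up to 0.0805) and the second when any 1 culture but LIF+PD replicate 1 was left out (up to 0.154). Stag3, the meiotic STAG subunit, was higher in CH+LIF (62.2 and 51.9 FPKM) than in 2i (31.9 and 38.1), a call kept whichever culture was left out (log2 difference 0.69, SE 0.12, adjusted p = 0.00736), and higher in LIF+PD (49.6 and 48.4) than in 2i (log2 difference 0.48, SE 0.12, adjusted p = 0.0245), lost without 2i replicate 1 or either LIF+PD culture (adjusted p up to 0.115). Most Stag3 values lie above the upper bounds deposited with them, so its level is uncertain. Syce1 and Syce2, of the central element, had 1 call each, Syce1 higher in LIF+PD than in 2i (log2 difference 0.79, SE 0.21, adjusted p = 0.0328) and Syce2 lower in 2i than in 2i+LIF (log2 difference -0.57, SE 0.15, adjusted p = 0.0408). Leaving out any 1 culture of its 2 media ended the call of Syce1 (adjusted p up to 0.117), and leaving out 2i+LIF replicate 1 or any culture of 2i or LIF+PD ended that of Syce2 (up to 0.192).

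Of the recombination genes, Dmc1 and Tex15 differed in opposite ways where LIF+PD was compared with 2i+LIF or CH+LIF. Both were called lower in CH+LIF than in 2i. Dmc1 (chr15:79561500-79605084), the meiotic strand exchange recombinase, was at 1.08 and 0.491 in 2i+LIF, 3.24 and 3.10 in 2i, 3.49 and 4.07 in LIF+PD, and 1.62 and 1.18 in CH+LIF. The 2i and LIF+PD cultures stood above those of 2i+LIF and CH+LIF. It was 4.83 times higher in LIF+PD (log2 difference 1.44, SE 0.20, adjusted p = 0.00301) and 4.04 times higher in 2i (log2 difference 1.24, SE 0.20, adjusted p = 0.00676) than in 2i+LIF, whichever culture was left out. CH+LIF was lower than LIF+PD (log2 difference -1.001, SE 0.20, adjusted p = 0.0101) but not without LIF+PD replicate 2 (adjusted p = 0.0629) or CH+LIF replicate 2 (0.057), and lower than 2i (log2 difference -0.81, SE 0.20, adjusted p = 0.0284) but not when any 1 culture of those 2 media was left out (0.0652 to 0.128).

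Tex15 (chr8:33516738-33585582), needed for repair of meiotic breaks and for transposon silencing in male germ cells, was at 5.22 and 4.30 in 2i+LIF, 6.81 and 5.81 in 2i, 0.910 and 0.691 in LIF+PD, and 2.13 and 2.10 in CH+LIF. Here LIF+PD was the lowest medium, below 1 FPKM in both cultures, CH+LIF came next, and no media overlapped. Its mean in LIF+PD was 7.88 times lower than in 2i (log2 difference -2.02, SE 0.15, adjusted p = 0.000235) and 5.94 times lower than in 2i+LIF (log2 difference -1.68, SE 0.15, adjusted p = 0.000559), and it was lower in CH+LIF than in 2i (log2 difference -1.23, SE 0.15, adjusted p = 0.00226), whichever culture was left out. The difference of CH+LIF from 2i+LIF (log2 difference -0.88, SE 0.15, adjusted p = 0.00764) was lost without 2i+LIF replicate 1 (adjusted p = 0.0541) and that from LIF+PD (log2 difference 0.79, SE 0.15, adjusted p = 0.00867) without LIF+PD replicate 2 (0.052). Hsf2bp, a partner of BRCA2 at meiotic breaks, had no call, and neither did Tex11 (0.527 to 1.99 FPKM), a crossover protein. Hsf2bp shares 1.5% of its exon bases with Rrp1b on the opposite strand, at 131 to 194 FPKM.

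In the piRNA pathway, which silences transposons in the germline, 4 of 11 members passed the filter, Mov10l1 through LIF+PD alone. Mael (chr1:166201385-166238744), a cofactor of that silencing, was at 1.67 and 1.76 in 2i+LIF, 5.21 and 6.54 in 2i, 6.98 and 9.15 in LIF+PD, and 5.09 and 5.05 in CH+LIF. Both 2i+LIF cultures were below all other 6. Against 2i+LIF it was 4.71 times higher in LIF+PD (log2 difference 1.73, SE 0.16, adjusted p = 0.000589), 3.43 times higher in 2i (log2 difference 1.33, SE 0.16, adjusted p = 0.00224) and 2.96 times higher in CH+LIF (log2 difference 1.16, SE 0.16, adjusted p = 0.00363), and the 3 calls stood whichever culture was left out. A small deficit of CH+LIF against LIF+PD (log2 difference -0.57, SE 0.16, adjusted p = 0.0368) was lost without either culture of 2i+LIF or CH+LIF or LIF+PD replicate 2 (adjusted p up to 0.185). Piwil2, a PIWI protein that binds piRNAs, was lowest in 2i+LIF (0.510 and 0.534 FPKM) and highest in CH+LIF (2.46 and 2.10), a called difference (log2 difference 1.11, SE 0.16, adjusted p = 0.00399). Its excess in CH+LIF over 2i (log2 difference 0.64, SE 0.16, adjusted p = 0.0276) and over LIF+PD (log2 difference 0.61, SE 0.16, adjusted p = 0.0274) was lost when any 1 culture of the compared media was left out (adjusted p up to 0.144 and 0.144), the former also when either LIF+PD culture was. Mov10l1, the helicase that prepares piRNA precursors, was at 2.83 and 1.24 FPKM in LIF+PD and at most 0.660 elsewhere, and for the same reason no test of LIF+PD is given. Tex19.1, which restrains transposons in germ cells and the placenta, had no call.

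Tex14, which holds open the bridges between dividing germ cells, ranged from 4.71 to 11.2 FPKM and was called higher in 2i than in 2i+LIF (log2 difference 0.71, SE 0.20, adjusted p = 0.0478), a call lost in 7 of the 8 fits that left out a culture, all but that without 2i+LIF replicate 2 (adjusted p up to 0.212). The plot of FPKM by medium shows the 14 members with the largest called differences. By mean, LIF+PD is the peak in Meioc, Majin, Hormad1, Hormad2, Mael, Dmc1 and Stra8 and the low point in Tex15 and Nanos3. In Stra8 LIF+PD overlaps 2i, and in Nanos3 it overlaps CH+LIF. Smc1b also peaks in LIF+PD, but it ranks among the 14 through calls against the medium that let it pass the filter. No medium is highest for all 14.

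**Figure D3:**
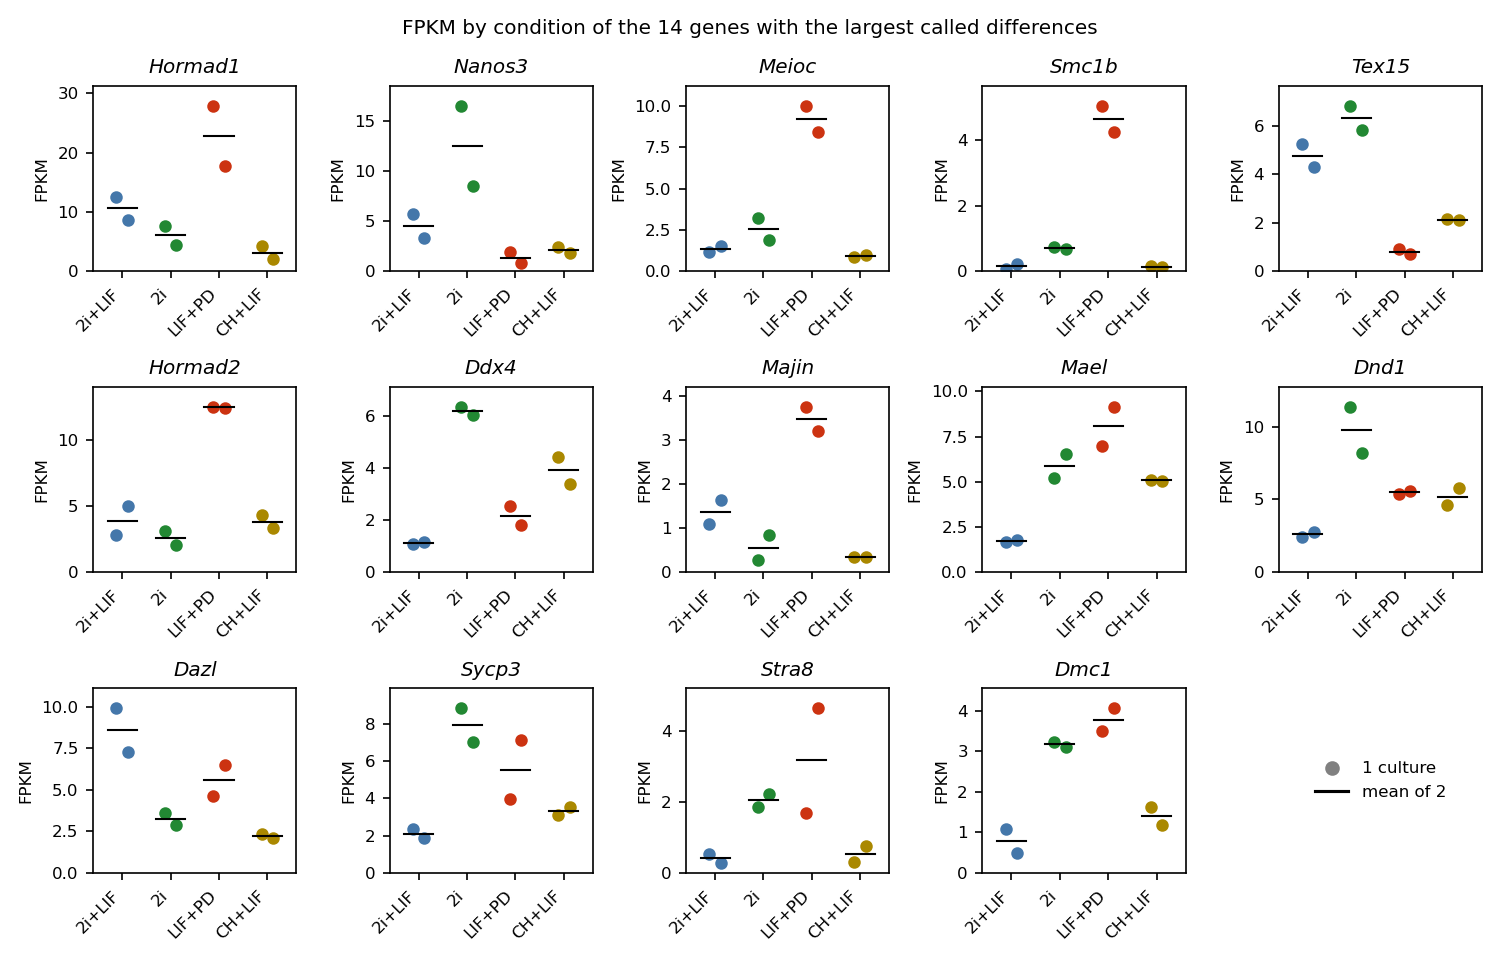
FPKM (y axis, linear from 0, a scale for each gene) of the 14 germline genes with the largest called differences in the 4 media (x axis). Each point is 1 culture and each line the mean of 2, and Smc1b is at 5.05 and 4.26 FPKM in LIF+PD and at most 0.744 in any other culture. Smc1b passed the filter through LIF+PD alone.

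The 13 members that did not pass the filter include core genes of meiosis and of the piRNA pathway. Spo11, the nuclease that makes meiotic breaks, was listed at 0 in 6 cultures and at 0.104 and 0.0662 FPKM in 2i, Nanos2 at 0 in 7 and 0.0802 in LIF+PD replicate 2, and Tdrd6 at 0 in 7 and 0.0220 in CH+LIF replicate 2. The synaptonemal genes Sycp1 and Sycp2 reached at most 0.357 and 0.347 FPKM, Asz1, Piwil1, Piwil4 and Tdrkh at most 0.167, 0.490, 0.186 and 0.567, and Slc25a31, a testis ADP/ATP carrier, 1.53 in 1 culture. So the RNA of Stag3, Syce2 and Hsf2bp was listed at 31.9 FPKM or more in every culture while that of Spo11 and Sycp1 was near or at zero. Most Stag3 values lie above the upper bounds deposited with them. Tex101 was at 0.949 and 0.819 FPKM in LIF+PD and at most 0.109 elsewhere. Tdrd1 and Tdrd9, Tudor proteins of the piRNA pathway, were highest in 2i, at 0.647 and 0.490 and at 0.387 and 0.538 FPKM, against at most 0.242 and 0.229 in other media. Values this low were left out of the reported tests. Alternatives with a lower filter or none did fit them, and some of their differences passed there, on values near zero. Overlapping genes make Tdrkh (36.7% of exon bases shared with Oaz3) and Nanos2 (49.0% with Gm45058) uncertain.

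Genes that write, copy or remove DNA methylation were measured alongside, from a list of 9, all of which passed the filter. In 2i 3 were higher and 2 lower than in 2i+LIF (9.77% and 8.86% of all genes), in LIF+PD 3 were higher and none lower (14.8% and 10.4%), and in CH+LIF 6 were higher and none lower (12.2% and 13.3%). LIF+PD had 3 higher and 1 lower than 2i (14% and 11.1%), and CH+LIF had 4 and 1 against 2i (10.6% and 13.3%) and none and 1 against LIF+PD (12.6% and 17.8%). Dnmt3a was at 6.50 and 6.33 in 2i+LIF, 63.5 and 51.2 in 2i, 43.4 and 31.9 in LIF+PD, and 21.0 and 17.0 in CH+LIF, all in FPKM. Every other medium was far above 2i+LIF, and 2i was the highest. The differences from 2i+LIF were 2.97, SE 0.18, adjusted p = 0.00014 for 2i, 2.37, SE 0.18, adjusted p = 0.000288 for LIF+PD and 1.43, SE 0.18, adjusted p = 0.0024 for CH+LIF, all on the log2 scale. Dnmt3l, the cofactor of the de novo enzymes, was at 47.1 and 25.4 in 2i+LIF, 150 and 140 in 2i, 165 and 190 in LIF+PD, and 157 and 156 in CH+LIF. It was also lowest in 2i+LIF (2.03, SE 0.25, adjusted p = 0.00217, 2.32, SE 0.25, adjusted p = 0.000929 and 2.14, SE 0.25, adjusted p = 0.00181, in the same order), and the other 3 media lay between 140 and 190 FPKM. These 6 differences passed under every alternative. Dnmt3b was called higher in CH+LIF (68.8 and 65.1 FPKM) than in 2i+LIF (35.0 and 33.4, log2 difference 0.95, SE 0.20, adjusted p = 0.0147), a call lost when any 1 culture of those media was left out (adjusted p = 0.0528 to 0.0768).

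Uhrf1 was lowest in 2i, at 143 and 176 FPKM against 293 and 293 in 2i+LIF (log2 difference -0.88, SE 0.11, adjusted p = 0.00262) and 273 and 255 in CH+LIF (CH+LIF minus 2i, 0.73, SE 0.11, adjusted p = 0.00488). Tet2, which oxidises methylated cytosine, was likewise lowest in 2i, at 6.70 and 7.05 FPKM against 15.9 and 16.1 in 2i+LIF (log2 difference -1.11, SE 0.09, adjusted p = 0.000511). Tet1 was at 58.6 and 54.1 in CH+LIF, above 2i+LIF (21.2 and 23.8 FPKM, log2 difference 1.29, SE 0.20, adjusted p = 0.00526) and 2i (20.2 and 29.5 FPKM, 1.17, SE 0.20, adjusted p = 0.00736). Dnmt1, the maintenance enzyme, ranged from 82.2 to 108 FPKM and was called higher in CH+LIF than in 2i (log2 difference 0.35, adjusted p = 0.0127) and in 2i+LIF (0.23, adjusted p = 0.0487), the smallest differences named for these enzymes, lost in 3 and 8 of the 8 fits that left out a culture (adjusted p up to 0.0622 and 0.176). The calls of Uhrf1, Tet1 and Tet2 named here passed under every alternative. The part of these enzymes in the members' differences was not tested.

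**Figure D4:**
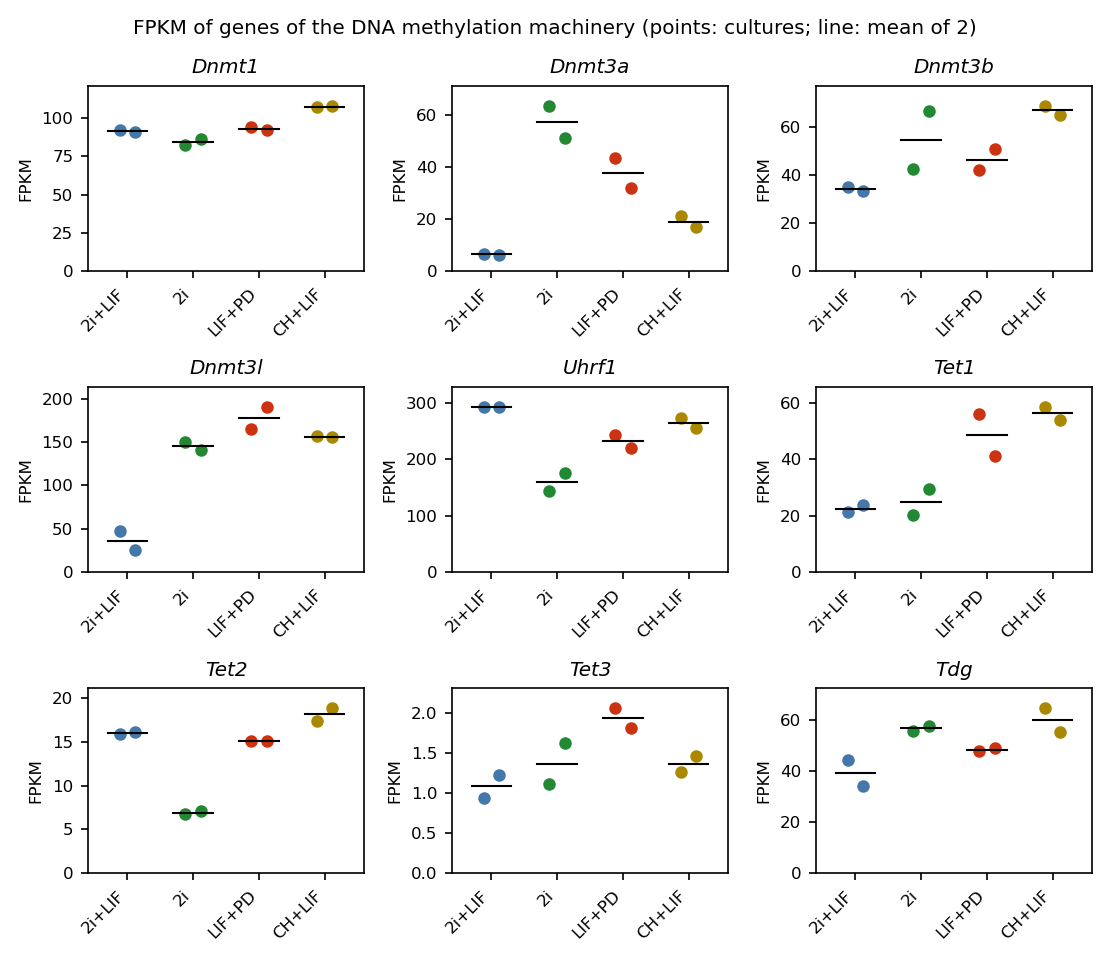
FPKM (y axis, linear from 0, a scale for each gene) of 9 genes of the DNA methylation machinery in the 4 media (x axis), with 1 point per culture and a line at the mean of 2. Dnmt3a and Dnmt3l are lowest in 2i+LIF, Uhrf1 and Tet2 are lowest in 2i, and Dnmt1 stays between 82.2 and 108 FPKM.

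Of 17 genes of the complexes that repress germline promoters, all passed the filter. Against 2i+LIF, none was higher and 3 lower in 2i, 1 and 1 in LIF+PD, and 3 and none in CH+LIF, which is 3, 2 and 3 calls against 18.6%, 25.2% and 25.4% of all genes. Against 2i, 3 were higher and 1 lower in LIF+PD and 4 and 2 in CH+LIF (25.1% and 23.9% of all genes called), and 3 were higher and none lower in CH+LIF than in LIF+PD (30.4%), so that 5 of these 6 counts lay below the share over all genes. E2f6 was lower in LIF+PD (9.71 and 10.9 FPKM) than in CH+LIF (17.9 and 17.0, CH+LIF minus LIF+PD 0.71, SE 0.13, adjusted p = 0.00742). Its partner Tfdp1 was higher in CH+LIF (141 and 138 FPKM) than in LIF+PD (83.0 and 88.6, log2 difference 0.69, SE 0.08, adjusted p = 0.000995), 2i+LIF (83.8 and 80.0, 0.76, SE 0.08, adjusted p = 0.0014) and 2i (81.1 and 88.3, 0.71, SE 0.08, adjusted p = 0.0014). These 4 calls were kept under every alternative. Mga ranged from 36.7 to 60.8 FPKM, Max from 66.8 to 83.8, Pcgf6 from 25.5 to 30.7 and L3mbtl2 from 49.7 to 86.6. Pcgf6 and L3mbtl2 had no call.

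Primordial germ cells are the founders of the germline, and 7 genes of their specification were all tested. Against 2i+LIF, 1 was higher and 3 lower in 2i (9.77% and 8.86% of all genes). In LIF+PD 4 were higher and 2 lower (14.8% and 10.4%), and in CH+LIF none was higher and 6 lower (12.2% and 13.3%). LIF+PD had 5 higher and none lower than 2i (14% and 11.1%). CH+LIF had 1 higher and 4 lower than 2i (10.6% and 13.3%) and none higher and 6 lower than LIF+PD (12.6% and 17.8%). Dppa3 (Stella), which protects against excess methylation in the egg, was at 66.0 and 47.9 in 2i+LIF, 24.1 and 15.3 in 2i, 25.7 and 29.9 in LIF+PD, and 2.37 and 2.30 in CH+LIF. CH+LIF was lower than every other medium by a wide margin (log2 difference -4.10, SE 0.23, adjusted p = 0.000233 against 2i+LIF, -2.60, SE 0.23, adjusted p = 0.000546 against 2i and -3.10, SE 0.23, adjusted p = 0.000177 against LIF+PD), under every alternative. Tfap2c was highest in LIF+PD (45.4 and 52.8 FPKM) and lowest in CH+LIF (15.6 and 16.8, CH+LIF minus LIF+PD -1.54, SE 0.15, adjusted p = 0.000518). Prdm1, the gene of BLIMP1, was at 7.51 and 4.67 FPKM in LIF+PD, above 2i+LIF (1.80 and 1.61, log2 difference 1.36, SE 0.21, adjusted p = 0.00418). Kit, the receptor that germ cells need to survive, was instead highest in 2i+LIF (79.4 and 79.8 FPKM) and lowest in 2i (23.0 and 21.9, log2 difference -1.78, SE 0.08, adjusted p = 5.30e-05).

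Marker genes give the setting of these values. The 8 naive pluripotency markers were present in all cultures, with a summed level of 2971 to 3884 FPKM. Of the markers that would point to other cells, 4 of post-meiotic male germ cells (Prm1, Prm2, Tnp1 and Acrv1) summed to at most 0.482 FPKM in any culture, with Prm1 and Prm2 listed at 0 in all. Of 5 markers of gonadal somatic cells, Cyp17a1 was listed at 0 and Nr5a1 reached 0.0359 FPKM, while Insl3 was at 7.52 to 14.5 outside 2i and at 1.98 and 0.280 in 2i. The 5 mesoderm and primitive streak markers summed to 7.81 and 6.64 in 2i+LIF, 21.9 and 12.2 in 2i, 3.21 and 3.54 in LIF+PD, and 47.4 and 28.5 in CH+LIF, all in FPKM, led by T (36.3 and 18.5 in CH+LIF, 0.161 and 0.210 in LIF+PD), with Mesp1 at most 0.259. The 4 neural markers summed to 6.16 and 5.41 in 2i+LIF, 11.2 and 13.1 in 2i, 31.2 and 31.1 in LIF+PD, and 4.08 and 5.31 in CH+LIF, again in FPKM, led by Neurod1 (11.5 and 11.9 in LIF+PD) and Pax6 (11.3 and 10.7 in LIF+PD, 7.81 and 9.20 in 2i), with Sox1 at most 1.83. The 5 endoderm markers summed to at most 4.36 FPKM, the 4 of trophectoderm to 15.9 to 27.7, highest in 2i+LIF, and the 5 of fibroblasts to 0.270 to 17.1, the top value from Postn in CH+LIF replicate 2 (14.1, at most 0.0338 elsewhere). The part of other cells in the members' differences was not tested. Relative depth, read from the smallest steps of weak genes, was 0.499 in 2i replicate 1 and 0.903 to 1.18 in the other 7 cultures relative to 2i+LIF replicate 1, so that values in 2i replicate 1 are the least precise.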

How the data were processed

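RNA sequencing of 8 mouse ESC cultures was read from 1 deposited table per culture. Per the labels and methods, single-end reads were mapped to mm10 with TopHat2, Ensembl gene models were used, and Cufflinks and Cuffdiff are named. The FPKM values were deposited by the authors with a lower and an upper bound per gene. The bounds were not used: 15 of 320 member values, of Rpl10l and Stag3, lie outside their own. The program and strand setting behind the FPKM are not given in the sources used here (the methods state a reverse-strand setting for read counts, which were not used here), and the labels name polyA RNA where the methods name ribosomal RNA depletion. FPKM sums were 715575 to 875458 per culture and 11659 to 12109 genes reached 1 FPKM. Total read counts are not given with these values.

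Genes at 1 FPKM or more in at least 2 cultures were compared on log2(FPKM + 1), which understates differences of weak genes, with limma 3.58.1 (R 4.3.3, mean-variance trend, 1 fit of 4 media, 4 residual degrees of freedom) and Benjamini-Hochberg adjustment over all genes tested. Values are described in full for members whose largest called difference was among the 14 largest, and the others by range. Members and lists were chosen with earlier results of these data known. Alternatives changed the pseudocount, filter, scaling, trend or replicate block, or left out 1 culture.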

Additional observations from a re-analysis of the deposited data

How the results depend on the processing

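Of the 70 called differences of the germline genes, 34 passed under every alternative that could be fitted, 36 were lost when at least 1 culture was left out, and 0 were reversed. Over 1307 refitted differences 195 lost the call, 132 of them by leaving out a culture. Of the 70 calls, 61 are of members other than Brdt, Smc1b and Mov10l1. The 34 that passed under every alternative include 3 of Smc1b and 1 of Brdt against the medium that let them pass the filter. Those had to differ. Rescaling to equal FPKM sums raised the 12 of 27 members called for LIF+PD against 2i+LIF to 19 of 28. All genes called in that comparison went from 3263 of 12927 to 3518 of 13385. Leaving out 1 culture gave 7 to 10 members called for 2i against 2i+LIF, 5 to 13 for LIF+PD against 2i+LIF, 5 to 9 for CH+LIF against 2i+LIF, 7 to 12 for LIF+PD against 2i, 4 to 10 for CH+LIF against 2i, 5 to 13 for CH+LIF against LIF+PD and 17 to 20 for any difference among the media. The shares of all genes called in those fits were 8.99% to 16.8%, 13.1% to 26.4%, 11.8% to 26.4%, 14.8% to 23.3%, 11.5% to 21.5%, 17.8% to 31.6% and 34.8% to 44.3%. With the replicate number as a block, 12, 15, 11, 14, 12 and 14 of 27 members were called in the order of the 6 pairwise comparisons. Of 12927 genes tested, the fit with that block called 2547, 3470, 3519, 3467, 3338 and 4105. Without it 2408, 3263, 3286, 3242, 3089 and 3928 were called. Deviations of cultures that share a number correlated at -0.03 to 0.09 over the genes tested. That cannot tell whether they shared a derivation or handling, which the descriptions do not state. Depth limits 2i most, since 2i replicate 1 had a relative depth of 0.499.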

Other observations

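A further 32 genes of meiosis, the piRNA pathway and the oocyte, listed by function and outside the 40, were read in the same way, and 19 passed the filter, Spata22 through LIF+PD alone. Against 2i+LIF, 3 were higher and 2 lower in 2i, 6 higher and 2 lower in LIF+PD, and 2 higher and 3 lower in CH+LIF, which is 5, 8 and 5 of 19 against 18.6%, 25.2% and 25.4% of all genes. LIF+PD had 5 higher and 5 lower than 2i (25.1% of all genes called). CH+LIF had 1 higher and 4 lower than 2i (23.9%) and 3 higher and 7 lower than LIF+PD (30.4%). Spata22 is among the 19 throughout, so the counts that involve LIF+PD are not free of the filter. Rec114, a partner of the meiotic break machinery, was at 23.6 and 21.6 in 2i+LIF, 17.3 and 10.6 in 2i, 66.6 and 69.3 in LIF+PD, and 5.77 and 4.00 in CH+LIF, all in FPKM. No 2 media overlapped, with LIF+PD highest and CH+LIF lowest. CH+LIF was below LIF+PD (log2 difference -3.57, SE 0.23, adjusted p = 0.000113) and LIF+PD above 2i+LIF (1.55, SE 0.23, adjusted p = 0.00354). Zcwpw1, which reads the histone marks set by PRDM9, was at 24.3 and 29.4 in LIF+PD against 7.79 and 7.62 in 2i+LIF (log2 difference 1.67, SE 0.16, adjusted p = 0.000617), and Ybx2, an RNA-binding protein of germ cells, at 29.5 and 36.5 against 12.5 and 9.58 (1.501, SE 0.16, adjusted p = 0.001). Terb2, a partner of MAJIN at meiotic telomeres, was at 5.10 and 6.54 FPKM in LIF+PD and at 0.656 and 0.388 in 2i (LIF+PD minus 2i, 2.16, SE 0.35, adjusted p = 0.00479).

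Other genes of this list peaked elsewhere. Tdrd12, a piRNA pathway protein, was highest in 2i (71.2 and 69.6 FPKM) and lowest in CH+LIF (24.8 and 17.6, CH+LIF minus 2i -1.71, SE 0.18, adjusted p = 0.00125). Fkbp6 was highest in 2i+LIF (35.3 and 38.7 FPKM) and lowest in LIF+PD (11.6 and 13.2, log2 difference -1.504, SE 0.13, adjusted p = 0.000466). Zp3, of the egg coat, was highest in 2i (13.6 and 19.3 FPKM) and lowest in LIF+PD (2.24 and 2.22, LIF+PD minus 2i -2.42, SE 0.18, adjusted p = 0.000235). The differences named in these paragraphs passed under every alternative that could be fitted, and Rad21l was listed at 0 in all 8 cultures. Of 10 regulators and genes of the retinoic acid pathway, 6 passed the filter, Zglp1 through LIF+PD alone. Against 2i+LIF there was 1 call in 2i, 3 in LIF+PD and 4 in CH+LIF. A further 2 were between LIF+PD and 2i, 1 between CH+LIF and 2i and 2 between CH+LIF and LIF+PD, against the same shares of all genes. Zglp1 is among the 6 throughout, so the counts that involve LIF+PD are not free of the filter. Of these genes, Sohlh2 was lower in CH+LIF (4.25 and 3.88 FPKM) than in LIF+PD (11.7 and 10.5, CH+LIF minus LIF+PD -1.25, SE 0.15, adjusted p = 0.00131), and Stra6 was at 0.882 and 0.8999 in LIF+PD and at most 0.0730 in other cultures, untested because it did not pass the filter.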
